A study of Caenorhabditis elegans with 2 samples.

Results

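The histone genes of Caenorhabditis elegans were examined for regions listed in chromatin immunoprecipitation with sequencing (ChIP-seq) of NHR-237. This protein is a member of the nematode's large nuclear hormone receptor family. Members were the protein-coding genes whose Ensembl symbol starts with his-, which gave 72 of 19973 genes on the 6 nuclear chromosomes. Ensembl gives near-identical genes one shared symbol, so that the 72 genes carry only 50 symbols. Each was therefore told apart by its gene ID and is named here by its RefSeq symbol, which all 72 had. RefSeq product names give 17 H2A, 16 H2B, 15 H3, 16 H4 and 5 H3.3 or H3.3-like genes, and 2 genes for short histone-fold proteins (his-39 and his-73). The product name of the 1 remaining gene, his-24, gives no class, and this gene was assigned to H1 by hand.

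Both libraries came from whole larvae at the L2 stage, males and hermaphrodites not separated, of strain OP228. It carries the unc-119(ed3) mutation on chromosome III and the integrated transgene wgIs228, from which eGFP-tagged nhr-237 is made. The 2 libraries are biological replicates 1 and 2 of this single group, so no condition was compared with another, and no immunoprecipitate from untagged larvae was analysed here. Which cells express the transgene was not stated in the labels. Region lists were available for each replicate (30000 regions each) and for both libraries called together (the pooled list, 6542 regions). A further list held 350 pooled regions selected by irreproducible discovery rate, a measure of how well ranks match between replicates (the IDR list). The authors label the pooled list as peaks and background, given as input to the IDR selection. The replicate lists reach down to regions with q-values near 1. A region of the pooled or replicate lists is therefore not by itself a call of binding. A region was counted for a gene when its summit lay within 1000 bp of the 5′ end of the gene model. Each region has 1 signal value in each list, the authors' enrichment measure on that list's own scale. Signals were therefore ranked within a list and carry no standard deviation. The read depth of the libraries is unknown.

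Core histones form the octamer around which DNA is wound, and the linker histone H1 binds where DNA enters and leaves it. In animals most core histone genes are replication-dependent. They are switched on when DNA is copied, lack introns, lie in clusters, and make messages that end in a conserved stem-loop instead of a poly(A) tail. Replacement histones such as H3.3 are made outside S phase as well, usually from spliced, polyadenylated messages. In C. elegans the core genes often stand head to head, an H2A beside an H2B and an H3 beside an H4, so that each pair shares a short promoter.

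The sequences that carry the main contrast are shown first, in ce11 coordinates and 5′ to 3′, as read from the RefSeq WBcel235 genome. Capitals mark matches, on either strand, to 6 short motifs that are listed with their counts further on. The first is the 250 bases upstream of his-37, chrV:9546855-9547104 on the plus strand, which hold the strongest region at any histone gene. The second is the whole interval between the starts of his-35 and his-41, chrV:9545289-9545535 on the plus strand, in the same cluster. The third is the interval between his-50 and his-49, chrV:8847705-8847942 on the plus strand, from a cluster with no region in any list. The fourth is the 250 bases upstream of the isolated H3.3 gene his-71, chrX:7982071-7982320 on the minus strand.
his-37: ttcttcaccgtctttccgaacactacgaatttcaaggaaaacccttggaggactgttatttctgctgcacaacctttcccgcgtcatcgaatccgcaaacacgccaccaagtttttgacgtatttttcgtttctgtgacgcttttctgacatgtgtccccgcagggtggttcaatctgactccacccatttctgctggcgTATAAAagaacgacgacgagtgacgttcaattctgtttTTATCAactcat
his-35/his-41: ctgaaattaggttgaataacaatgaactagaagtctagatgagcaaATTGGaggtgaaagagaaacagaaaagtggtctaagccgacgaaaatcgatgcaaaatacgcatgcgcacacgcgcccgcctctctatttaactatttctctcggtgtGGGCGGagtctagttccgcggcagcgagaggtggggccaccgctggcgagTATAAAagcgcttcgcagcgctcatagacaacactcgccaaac
his-50/his-49: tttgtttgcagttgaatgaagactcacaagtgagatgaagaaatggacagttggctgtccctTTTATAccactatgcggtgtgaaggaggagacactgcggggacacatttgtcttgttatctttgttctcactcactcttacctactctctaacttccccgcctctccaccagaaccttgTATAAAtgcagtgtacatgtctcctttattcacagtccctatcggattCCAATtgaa
his-71: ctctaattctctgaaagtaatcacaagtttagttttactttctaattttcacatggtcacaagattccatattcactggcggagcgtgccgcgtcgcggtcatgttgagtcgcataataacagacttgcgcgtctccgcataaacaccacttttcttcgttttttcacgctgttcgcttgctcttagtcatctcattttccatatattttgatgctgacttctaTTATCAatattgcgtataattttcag
The IDR and pooled summit upstream of his-37 fell on base 170 of the first sequence. The summit of replicate 1 fell on base 157 and that of replicate 2 on base 213, on either side of the TATAAA that starts at base 201. The third sequence occurs a second time, base for base, between his-28 and his-27 at chrV:8889800-8890037. No word of 36 bases within 500 bp of the starts of his-50, his-49, his-28 or his-27 occurs only once in the genome, whereas every such word around his-37 and his-71 does.

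Few histone genes had a region near the start. In the IDR list there were 3 of 72 (4.17%), against 1.72% of all protein-coding genes, and in the pooled list 4 of 72 (5.56%), against 15.8%. The lists of single replicates reached 12 genes (16.7%) in replicate 1, against 50.3%, and 16 (22.2%) in replicate 2, against 49.3%. Both replicates had a region near 8 genes (11.1%), though not always at the same place, against 28.8%. At his-35, his-41, his-42 and his-72 no summits of the replicate lists matched within 150 bp. Thus the histone share stood above that of all protein-coding genes in the IDR list, where it rests on 3 genes at 2 regions, and below it in the others. Of the histone genes, 62 stand in head-to-head pairs. Among 3490 protein-coding genes in such pairs, with starts up to 1000 bp apart, 4.84% had an IDR region and 24% a pooled one. The histone IDR share was not above that of paired genes. Because genes in a cluster share regions, genes are not independent and these shares were not tested.

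Counted as regions, the IDR list held 2 near histone starts and the pooled list 3, of which 1 in each was shared by a pair of genes. In replicate 1 there were 9 distinct regions, 4 of them near more than 1 histone gene, and in replicate 2 there were 15, of which 5 were shared. A histone gene had the closest protein-coding start for 2 of 2 IDR, 3 of 3 pooled, 8 of 9 replicate 1 and 12 of 15 replicate 2 regions. In 52 of the 72 genes no list had a region, against a smaller share, 5838 of 19973, of all protein-coding genes. In 12 of the 72 genes 1 replicate had one and the other had none, against a larger share, 8367 of 19973, of all protein-coding genes.

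**Figure D1:**
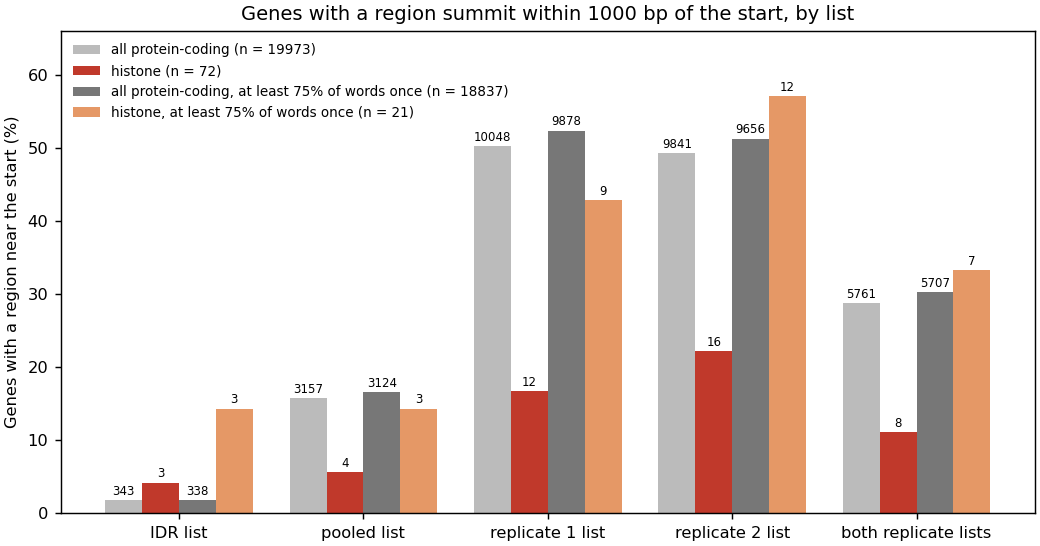
Percent of genes with a region summit within 1000 bp of the start (vertical axis) in each list, for all protein-coding genes, for histone genes, and for the genes of each kind in which at least 75% of the 36-base words around the start occur once in the genome. Numbers over the bars are genes. In the pooled and replicate lists the bars of all 72 histone genes stand below those of all genes, and those of the 21 histone genes with mostly unique sequence stand nearer to their background.

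The strongest region lay at his-37, an H4 gene. It had a pooled signal of 136 and rank 29 of 6542, at chrV:9546836-9547211, between genes. In replicate 1 the matching region had a signal of 83.3 and rank 33, and in replicate 2 a signal of 50.8 and rank 27. The ranks were thus close in both libraries. The summits lay 81 bp (pooled), 94 bp (replicate 1) and 38 bp (replicate 2) upstream of the start. C50F4.6 was the other protein-coding gene with a start within 1000 bp of the pooled summit. Its start lies within the body of his-41. his-37 differs from the other 15 H4 genes in having 2 exon intervals, counted over all transcripts of the gene, and no stem-loop after it.

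The other IDR region stood between his-67, an H4 gene, and his-68, an H2A gene, which form a head-to-head pair on chromosome I with 368 bp between their starts. Its pooled signal was 49.1 at rank 246. Replicate 1 had a signal of 36 and rank 204 there, and replicate 2 had 14.3 and rank 1059. The region therefore ranked high in replicate 1 and lower in replicate 2, although it was found in both. The pooled summit was 231 bp upstream of his-67 and 138 bp upstream of his-68, and alg-5, an Argonaute gene, also had a start within 1000 bp. Both histone genes have a single exon and a stem-loop, and 94.9% and 89.9% of the words around their starts occur once. This region lies in the weaker part of the IDR list, so that only his-37 was left among the 175 highest IDR regions.

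The third pooled region was near his-42, an H3 gene at the edge of the largest cluster. Its summit at base 13829489 of chromosome II lay 792 bp upstream of his-42 and was at rank 888 with a signal of 29.7. The region had a −log10 q-value of 0.549, against 2.81 at those of his-37 and of his-67 and his-68. Only 40.2% of its 36-base words occur once in the genome, against 100% in those regions. The same summit lay 2 bp inside F08G2.10, an snRNA gene at chrII:13829305-13829491. Replicate 1 had a region there with a signal of 27.1 and rank 422. Replicate 2 had none within 150 bp of that summit, and its nearest one, 493 bp upstream of his-42, had a signal of 7.54 and rank 12644. The part of the snRNA gene or of copied sequence in the signal counted for his-42 was not tested.

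**Figure D2:**
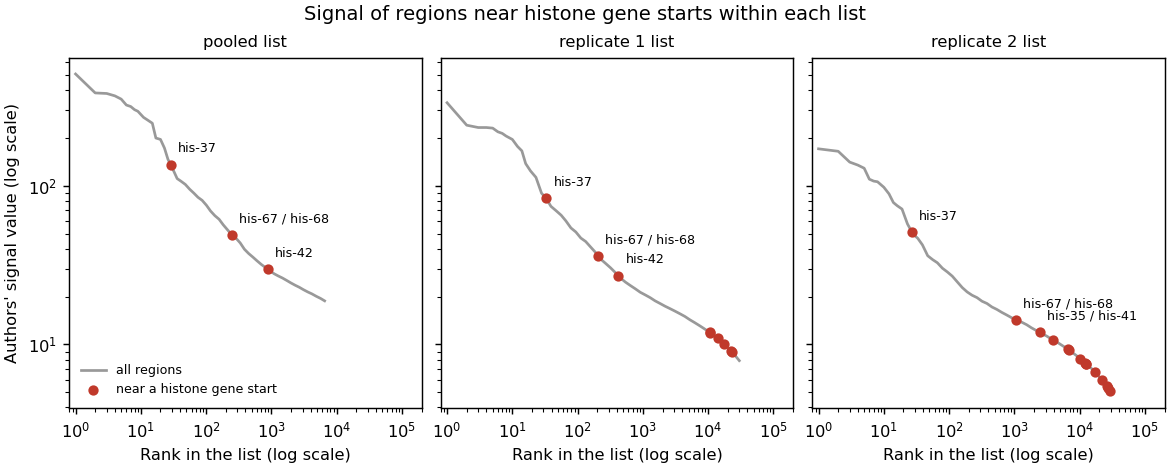
Authors' signal value against rank, both on log scales, for all regions of the pooled and of each replicate list (grey lines) and for the regions near a histone gene start (red points). The region of his-37 stands among the first 33 of every list, while most other points of the replicate lists lie far down the curve.

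All replicate regions near histone genes, those described above included, were also set beside their lists. In replicate 1, 6 of the 9 ranked above the middle of the list, and in replicate 2, 10 of the 15 did. Replicate 1 had a median signal of 11.8 over its 9 regions near histone genes, against 10.6 over its whole list. Replicate 2 had 7.68 over 15 regions, against 7.08. Of the 9, 3 were among the 6542 highest of replicate 1, and of the 15, 4 were among the 6542 highest of replicate 2. A summit of the other replicate lay within 150 bp for 3 of the 9 and 3 of the 15. Over whole lists, 18.7% of replicate 1 regions and 18.8% of replicate 2 regions had such a match. The −log10 q-value of the 9 regions went down to 0.0303 and that of the 15 to 0.061. A value near 0 on this scale means a q-value near 1.

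A gene was taken as clustered when another histone start lay within 5000 bp. This gave 67 clustered genes in 15 clusters of 2 to 13 genes, which span 957 to 10938 bp, and 5 isolated genes. Clusters are named here by chromosome and order along it. In the pooled list 4 of 67 clustered genes (5.97%) and 0 of 5 isolated genes had a region, against 15.8% of all genes. A count of 0 in 5 allows, from counting error alone, a share of up to 60% by a rough limit of 3 counts in 5. The isolated share could therefore not be shown to be lower. In replicate 1 the counts were 10 of 67 (14.9%) and 2 of 5 (40%), and in replicate 2 they were 13 of 67 (19.4%) and 3 of 5 (60%). Both replicates had a region at 6 clustered and 2 isolated genes. The isolated genes were thus near the background of 50.3% and 49.3% in the single lists, and the clustered genes below it. With 5 isolated genes no difference between both kinds was tested.

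Between the first and last base of the 15 clusters, 57026 bp in all, the IDR list had 2 summits, where its genome-wide rate of 0.00349 per kb would give 0.199. The pooled list had the same number, 2, where 0.0652 per kb would give 3.72. Replicate 1 had 3 summits and replicate 2 had 5, where 0.299 per kb in either list would give 17.1. The clusters thus lay above the genome-wide rate in the IDR list, with 2 summits, and below it in the other lists. This rate takes all bases as equally open to a region. Yet 36-base words that occur once made up from 0% (V-2 and IV-5) to 99% (V-4) of a cluster. In the longest cluster, II-1, they made up 7.05%. The part of copied sequence in these counts was not tested. In 11 of the 15 clusters neither replicate had a summit inside. All 4 others are named here: I-1 (his-67 and his-68), IV-1 (his-61, his-62, his-60 and his-59), IV-2 (his-29 to his-34) and V-4 (his-35, his-41 and his-37).

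The largest cluster, II-1, holds his-16, his-15, his-14, his-13, his-12, his-11, his-10, his-9, his-25, his-26, his-44, his-43 and his-42 in 10938 bp. It had no summit inside in any list, and only regions at its edges reached his-42, his-16 and his-15. V-2 (his-50, his-49, his-51, his-52, his-54 and his-53) and V-3 (his-28, his-27, his-21, his-22, his-20, his-19, his-17 and his-18) had no region within 1000 bp of any start in any list. V-2 sits in a stretch of 15287 bp without a single once-only word, and V-3 overlaps another of 15473 bp. Neither stretch held a summit in any list. IV-3 (his-47, his-48, his-46 and his-45), IV-5 (his-66 and his-65), IV-6 (his-63 and his-64), V-5 (his-4, his-3, his-2 and his-1) and X-1 (his-38 and his-40) also had no region near a start in any list.

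Single weak regions were found at several more clusters. At IV-1 replicate 2 had 1 region, with a signal of 10.7 and rank 3894, that was shared by his-62, his-60 and his-59. Its summit lay 701 bp downstream of the start of his-60, an H4 gene, past the end of that gene and outside the shared promoters. At IV-2 replicate 1 had a region in his-31 (signal 10.9, rank 14067), which also counted for his-32. At V-1 (his-8, his-7, his-6, his-5 and his-39) replicate 2 had a region 549 bp downstream of the start of his-8 with a signal of 5.08, near the foot of its list at rank 29426. In IV-4 (his-55, his-56, his-58 and his-57) only his-55 had one, in replicate 2 at rank 25928, and F54E12.2 had the closer start. At III-1, the H3.3-like genes his-69 and his-70, replicate 2 had a region at rank 21899 that lay closer to rcq-5 than to his-69. None of these had a match in the other replicate.

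Cluster V-4 differed from these in that all 3 of its genes had regions in both replicates. The interval between his-35, an H2A gene, and his-41, an H2B gene, had no summit in any list. Replicate 2 had a region with a signal of 11.9 and rank 2469 whose summit was 57 bp inside his-35, and another in his-41 at rank 17224, whose summit was closer to the start of C50F4.6. In replicate 1 the closest region to his-35 and his-41, at rank 10660, was 328 bp upstream of mdf-1 and thus closer to that gene. The 2 libraries therefore did not place a region of his-35 and his-41 at the same position. The H4 gene his-37 was the only one in this cluster with a pooled region.

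**Figure D3:**
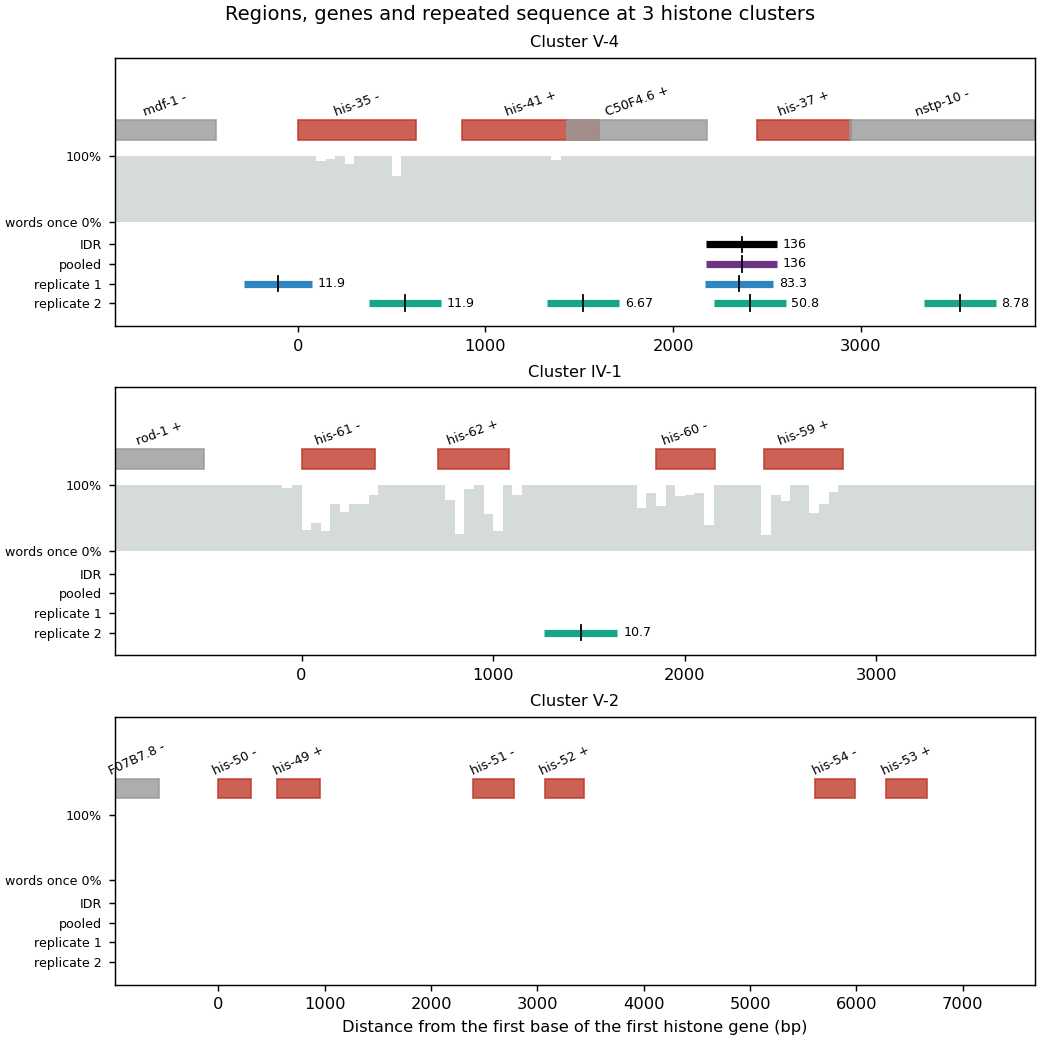
Maps of clusters V-4, IV-1 and V-2 by distance in bp from the first base of the first histone gene, with histone genes in red, other protein-coding genes in grey and strand signs beside the names. Grey fill gives the percent of 36-base words that occur once in the genome in steps of 50 bp, and bars below give the regions of each list with their summits (ticks) and signals. V-4 has the region of his-37 in every list, IV-1 has a single replicate 2 region, and V-2 has neither regions nor once-only words.

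The isolated genes were his-24, his-71, his-72, his-73 and his-74. At his-24, the linker histone gene, replicate 1 had a region 21 bp downstream of the start (signal 10.1, rank 17321). Replicate 2 had 3, at -318 bp (signal 9.32, rank 6593), -72 bp (5.34, rank 27072) and 426 bp (9.26, rank 6757), where negative distances are upstream. These regions were weak in both libraries, and 1 of the 3 matched that of replicate 1. At his-72, an H3.3 gene, replicate 1 had a region 184 bp upstream with a signal of 11.8 and rank 10805, and replicate 2 had regions at 49 bp (7.54, rank 12667) and -543 bp (7.68, rank 12029), none of them matched. A pooled region just outside the distance limit, 1087 bp upstream of his-72, had a signal of 22.2 and rank 3062. At his-71, the other H3.3 gene, only replicate 2 had a region, 260 bp upstream (8.12, rank 10236). No list had a region at his-73 or at his-74, an H3.3-like gene. Just inside the limit, the region counted for his-41 in replicate 1 lay at 982 bp and that counted for his-59 in replicate 2 at 958 bp.

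Sequence copies differed sharply between both kinds of gene. The measure was the percent of 36-base words within 500 bp of the start that occur once in the genome, on either strand. It had a median of 5.9% over clustered genes and 100% over isolated genes, with a lowest isolated value of 80.8% at his-73. Over all protein-coding genes the median was 100%, with a lower quartile of 99.5%. Class medians were 1.86% for H2B, 3.0% for H2A, 8.07% for H3 and 33.6% for H4, and 100% for the H3.3 genes. Reads that match several places equally well can be lost or shared by a pipeline, and how the authors treated them is not given in the sources used here.

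Genes with many copied words seldom had regions, whether histone genes or not. Of 1085 other protein-coding genes with under 75% once-only words, 2.95% had a pooled region, 15.4% a replicate 1 region and 16.7% a replicate 2 region. Of 18816 others with at least 75%, the shares were 16.6%, 52.5% and 51.3%. Among histone genes the 51 with under 75% included 1 with a pooled region (1.96%), 3 with a replicate 1 region and 4 with a replicate 2 region. The 21 histone genes with at least 75% included 3 (14.3%) in the pooled list, 9 (42.9%) in replicate 1, 12 (57.1%) in replicate 2 and 7 (33.3%) in both replicates. In this class the histone shares thus stood near those of other genes in the pooled and replicate lists, while the 3 genes of the IDR list made up 14.3%, against 1.78%. Within it, 16 clustered genes had 3 pooled, 7 replicate 1 and 9 replicate 2 genes, and the 5 isolated genes had 0, 2 and 3. The limit of 75% was set after the values were seen, and the part of copied sequence in the low counts was not tested.

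**Figure D4:**
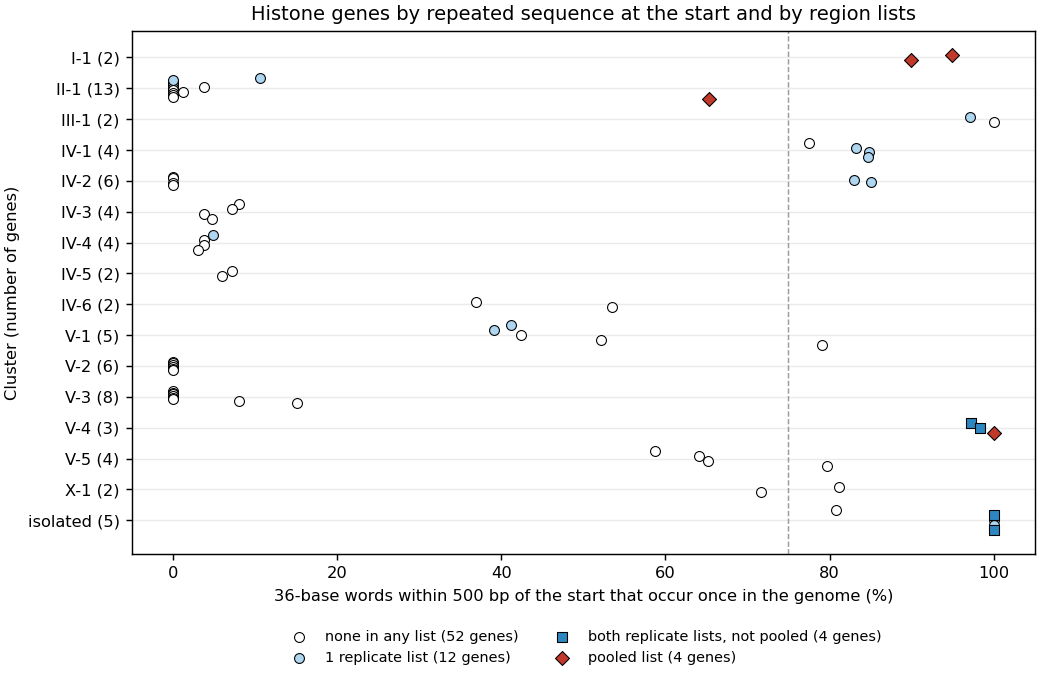
Each of the 72 histone genes by the percent of 36-base words within 500 bp of its start that occur once in the genome (horizontal axis) and by cluster (rows), with the symbol showing in which lists a region lay near the start. The dashed line marks 75%. Most genes without a region lie at the left, and 3 of the 4 genes of the pooled list and all 4 genes of both replicates only lie at the right.

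Of the 72 genes, 62 stand in 31 head-to-head pairs with 227 to 368 bp between the starts (median 258 bp). In 1 pair, his-67 and his-68, a summit lay between the starts, in all 4 lists. Among all 1745 head-to-head pairs of protein-coding genes up to 1000 bp apart, 4.07% had an IDR summit in between, 16.4% a pooled one, 28.5% one of replicate 1 and 27% one of replicate 2. These intervals have a median of 475 bp and so offer more room than histone intervals. In 16 histone pairs the interval was identical, base for base, to that of another pair, and in 24 the closest other pair was at least 90% identical. The interval of his-67 and his-68 was at most 64.7% identical to another. The intervals of his-35 and his-41, with at most 52%, and of his-31 and his-32, with at most 58.9%, were less like any other. Neither had a summit in any list. The part of sequence identity in these counts was not tested.

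The genes were also grouped by exon count and the stem-loop. Exons were counted as distinct intervals over all transcripts of a gene, so a count above 1 does not by itself show splicing. A match to the worm form of the histone stem-loop lay from 50 bp before to 150 bp after the 3′ end of the model in 62 of 72 genes (86.1%) and in no protein-coding gene outside the family. The 10 without a match there were the 8 genes with more than 1 exon (his-24, his-35, his-37, his-41, his-57, his-71, his-72 and his-74) and his-69 and his-70. A stem-loop further inside a model would be missed. This bears on his-57, whose model, with 6 exon intervals from 11340390 to 11341703, is the longest of the H2A genes. Of these 10, a region lay near 1 in the pooled list (10%, against 15.8% of all protein-coding genes), 5 in replicate 1 (50%, against 50.3%) and 7 in replicate 2 (70%, against 49.3%). Of the 62 with it, the counts were 3 (4.84%), 7 (11.3%) and 9 (14.5%), each below the share of all genes. In the IDR list there were 1 of 10 (10%) and 2 of 62 (3.23%), against 1.72%. Once-only words differed as well, with a median of 100% without the stem-loop and 4.81% with it. Among genes with at least 75% once-only words, 2 of 12 with the stem-loop and 1 of 9 without it had a pooled region, 4 and 5 a replicate 1 region, and 5 and 7 a replicate 2 region. The search pattern and this grouping were chosen after values were seen.

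Motifs were counted from 250 bp before to 50 bp after each start, on both strands, and matches to different motifs may overlap. The motif of the TATA box, TATAAA, was in 47 of 72 histone windows (65.3%), against 37.9% of all protein-coding windows. A KLF/SP type motif, CCGCCC, was in 30 (41.7%), against 7.83% of all. A GA repeat, GAGAGAG, was in 10 (13.9%), against 6.78%. The inverted CAAT box, ATTGG, was in 39 (54.2%), against 45.5%. A GATA factor motif, TGATAA, was in 13 (18.1%), against 30.2%. The hexamer known from many nuclear receptors, AGGTCA, was in 2 (2.78%), against 8.27%. Many windows are copies of each other, and the windows of head-to-head partners overlap, so that 1 match can count for both. These are therefore descriptions of few distinct sequences. Of the 3 genes with an IDR region, 2 windows held the TATA box, 2 the GA repeat and 2 the inverted CAAT box. The KLF/SP type motif was in 1, the GATA factor motif in 1 and the nuclear receptor hexamer in 0. The windows with the GA repeat and with the inverted CAAT box were those of the partners his-67 and his-68, which overlap. Most histone windows with a TATA box or a KLF/SP type motif had no region.

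For comparison, 27 other histone and histone-handling genes were listed, and all 27 matched. An IDR region lay near 3 of them (11.1%, against 1.72% of all protein-coding genes) and a pooled region near 7 (25.9%, against 15.8%). Replicate 1 had a region near 18 (66.7%, against 50.3%), replicate 2 near 20 (74.1%, against 49.3%) and both replicates near 13 (48.1%, against 28.8%). Each share was above that of all genes. The highest was htz-1, which encodes the variant H2A.Z, with a pooled signal of 88.5 (rank 69) and replicate ranks of 110 and 55. Next came hat-1, a histone acetyltransferase (62.2, rank 153, with 190 and 89 in replicates 1 and 2). The gene lin-53, for a histone-binding protein of several chromatin complexes, had 58.3 (rank 177), with rank 107 in replicate 1 and rank 4508 in replicate 2. Pooled regions outside the IDR list were at nap-1, for a nucleosome assembly protein (32.8), nasp-2 (26.7), cdl-1, for the protein that binds the histone stem-loop (25.7), and nasp-1 (22.6). None of the H1-like genes hil-1 to hil-8 and neither centromeric H3 gene, hcp-3 nor cpar-1, had a pooled region. In this list the lowest share of once-only words was 83.4%, at spt-16 and unc-85.

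Leaving out a library moved some counts. With only the 6542 highest regions of replicate 2, 8 histone genes had a region, all of them clustered, and with those of replicate 1 there were 4. With the 350 highest regions of replicate 2 only his-37 remained, and with those of replicate 1 the count was 3.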

How the data were processed

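ChIP-seq regions of eGFP-tagged NHR-237 in whole L2 larvae were used as the narrowPeak lists that the authors deposited in ce11, 1 per replicate, 1 pooled and 1 IDR list. Per the deposited file descriptions, each list was derived from the alignment of a library, or of both, and a control alignment. Peak caller, aligner and IDR threshold: not given in the sources used here. The signal of a region (column 7) and its −log10 q-value (column 9) are as deposited by the authors. Q-values share a ceiling, so regions were ranked by signal. The ce10 lists were not used here. Coordinates are 1-based.

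Gene models came from Ensembl release 115 (WBcel235, the same assembly as ce11; all regions lay within its chromosomes), and symbols, product names and sequence from RefSeq WBcel235, matched by WormBase gene ID for all 72 genes. In 65 of the 72 the model starts at the start codon, so its 5′ end is not the transcription start. Regions matched across lists when their summits were within 150 bp. Words of 36 bases were counted over the whole genome, both strands together; the read length is not given in the sources used here. Intervals between paired genes were aligned globally, and identity is the matches as a percent of the longer sequence. Calculations used Python 3.11.15, NumPy 2.4.6, pandas 2.3.3 and Biopython 1.88, and plots matplotlib 3.10.9. The procedures were tested on simulated regions and a simulated genome. No test was made across histone genes, which share regions, and shares are given beside those of all protein-coding genes. The 2 libraries are labelled biological replicates, with 1 value per region in each list.

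Members, lists and motifs were chosen with earlier results of these data known. Named genes were those with an IDR region, isolated genes, those at the highest pooled regions, cluster members, and listed histone-handling genes with an IDR or pooled region; others named were picked once values had been seen. Alternatives were the distance limit, transcript starts, region intervals, stricter lists, single replicates, cluster distance, merged summits and word length.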

Additional observations from a re-analysis of the deposited data

How the results depend on the processing

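Counts of genes with a region near the start moved with the distance limit, with the length of the lists and with the replicate used. At 2000 bp they rose from 3 to 5 genes for the IDR list, from 4 to 10 for the pooled list and from 8 to 14 for both replicates, with 9 clustered and 1 isolated gene in the pooled list and 6 distinct pooled regions in place of 3. At 250 and at 500 bp the count for both replicates was 5. With any base of a region within 1000 bp, in place of the summit, 1 isolated gene (none before) had a pooled region. The higher 175 IDR regions left 1 gene, and replicate lists cut to the length of the pooled list left 3 genes with both. With lists of the same length from a single replicate, the IDR count ranged from 1 to 3, the pooled count from 4 to 8, the clustered count from 4 to 8, the isolated count from 0 to 0 and the distinct regions from 3 to 4. Once-only words made up 35.8% around histone starts at 36 bases and 39.1% at 50 bases. Starts of any transcript and merged summits moved no count by more than 1.5 times. Cluster distances of 2000, 10000 and 20000 bp left the split at 67 clustered and 5 isolated genes, so those counts could not change. Histone genes with at least 75% once-only words alone, chosen after seeing the data, also kept counts within 1.5 times. Only 21 of the 72 genes remained, however, so that shares rose. The IDR share went from 4.17% to 14.3%, the pooled share from 5.56% to 14.3% and that of both replicates from 11.1% to 33.3%. Depth is unknown, and 2 libraries give no error for a single region. No paired analysis was possible because there is 1 group.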
